A study of Mus musculus with 7 samples.

Results

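The forkhead transcription factors were described in endothelial cells sorted from fetal mouse lung. Members were the genes whose platform symbol reads Fox, a letter from a to s and a digit, apart from Foxj1 and Foxc2, and each was represented by the probe set with the highest mean over the 7 arrays among those with exactly 1 symbol. The rule found 43 of the 22180 genes on the array that have 1 symbol. Of these, 41 code for protein and 2, Foxd2os and Foxl2os, are long non-coding RNAs that carry a neighbouring forkhead gene's name and are not transcription factors.

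Lungs were taken at E18.5 from littermates on a C57BL/6 background, and the 2 groups were 3 wild-type samples and, by their labels, 4 Sash1-knockout samples, which lack Sash1 in both gene copies (Sash1-/-). Nothing in the labels tells what stretch of Sash1 is missing or whether each sample was its own embryo, so a p-value covers the spread among these samples alone, and part of that spread may be technical. Viable CD31+/CD45-/CD326- cells were sorted in both groups, a gate that takes endothelial cells and leaves out leukocytes and epithelial cells. The question of the series is how endothelial Sash1 bears on surfactant and nitric oxide signalling, and the comparison here asks whether forkhead genes differed between the labels.

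Forkhead proteins bind DNA through a shared winged-helix domain that recognises a short core sequence, and differ in where they are expressed and how they are controlled. FOXF1 is made in lung mesenchyme and endothelium and is needed for lung capillaries to form, and its loss in humans causes alveolar capillary dysplasia. FOXO factors restrain endothelial growth and are kept out of the nucleus when AKT, below the TIE2 and insulin receptors, phosphorylates them. FOXM1 drives mitotic genes, FOXP factors are repressors, and FOXA1 and FOXA2 open chromatin in airway and alveolar epithelium.

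The core sequence is shown because it joins the factors to the genes considered with them. It was searched as TGTTTAC and its reverse complement GTAAACA in windows of 300 bases, 250 before to 50 after each annotated gene start, from RefSeq (GRCm38.p6). The sequence was present in 3.65% of all 32851 windows, and in 1 of the 34 windows (2.94%) of the 29 members that matched. That window belongs to Foxa1, and its 250 bases before the start are given from chr12:57546112-57546361 on the minus strand, with the match in capitals.
Foxa1: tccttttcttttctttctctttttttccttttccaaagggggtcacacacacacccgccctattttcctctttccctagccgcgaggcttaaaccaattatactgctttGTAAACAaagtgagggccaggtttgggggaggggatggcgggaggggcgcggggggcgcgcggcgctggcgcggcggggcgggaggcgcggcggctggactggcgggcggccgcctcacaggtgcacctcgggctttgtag
A match describes letters only, not binding.

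Among genes listed as FOXO targets, 4 of 29 windows held the core sequence (13.8%), those of Bcl2l11, Sesn1, Trim63 and Txnip. Stretches around the 3 matches that lie before the gene start are given with the match in capitals, all on the plus strand of GRCm38.p6, at chr2:128125788-128125842, chr4:134314901-134314957 and chr3:96557811-96557867.
Bcl2l11: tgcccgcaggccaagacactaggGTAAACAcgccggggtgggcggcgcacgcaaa
Trim63: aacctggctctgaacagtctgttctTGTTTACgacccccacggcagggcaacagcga
Txnip: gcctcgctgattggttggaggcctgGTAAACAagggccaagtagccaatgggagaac
FOXM1 reaches many of its mitotic genes through a protein complex that binds another element, the CHR, rather than through the forkhead core. Searched as TTTGAA and its reverse complement TTCAAA, the CHR lay in 14 of 22 windows of listed FOXM1 targets (63.6%), against 17.9% of all windows, while the forkhead core lay in 0 of the 22. The list also holds Lin9 and Lin54, which code for subunits of that complex, and Lin54 windows are among the 14. The Skp2 window is unlike most of this list, with 0 CG dinucleotides at 43.7% GC, against a list median of 24 at 57.9% GC. The stretches of Skp2 and Mki67 each hold a pair of CHR matches, in capitals, on the minus strand at chr15:9155450-9155513 and chr7:135716447-135716520.
Skp2: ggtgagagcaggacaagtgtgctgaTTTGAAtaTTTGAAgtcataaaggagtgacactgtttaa
Mki67: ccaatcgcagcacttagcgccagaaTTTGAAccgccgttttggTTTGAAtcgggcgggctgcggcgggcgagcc
None of the printed matches overlapped a CCAAT box (CCAAT or ATTGG), the other motif searched, which lay in 44.1% of the members' windows and 37.4% of all windows.

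The members' gene starts were rich in CG dinucleotides. The median window held 22 of them at 62.9% GC, against 7 at 52.7% GC over all windows, and the 16 windows of members expressed on all arrays had a median of 29, against 13.5 in the 18 windows of the other members. These 16 windows belong to 12 of the 23 expressed members, with several each from Foxa2 and Foxp1 and none from Foxf1. Some members are neighbours in the genome. Foxq1, Foxf2 and Foxc1 follow each other on chromosome 13 with no other coding gene between them, Foxd2 and Foxe3 do so on chromosome 4, and Foxf1 and Foxl1 lie close together on chromosome 8, where the long non-coding RNA gene Fendrr flanks Foxf1. The 43 members lie on 16 chromosomes.

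Signals are log2 values from 1-colour Affymetrix arrays, 1 per sample, and their number limits the precision. Pecam1, which encodes CD31, lay between 11.03 and 11.21 on all arrays, Ptprc, which encodes CD45, between 3.51 and 4.85, and Epcam, which encodes CD326, between 4.06 and 5.31. Sash1 itself measured 9.02, 8.73 and 8.33 on wild-type-labelled arrays 1 to 3 and 8.29, 8.21, 8.68 and 8.13 on knockout-labelled arrays 1 to 4, so the groups overlapped, and wild-type 3 and knockout 3 went against their labels. Groups are therefore named by label, and every direction rests on the labels. Counts are also given without these 2 arrays, a pair chosen after seeing the data. In a bulk sample, fewer cells of a type and less RNA per cell cannot be told apart. Wild-type array 1 and knockout 2 came from male samples by Xist and Y-linked genes and the others from female ones, so each group holds samples of both sexes and neither group comes from 1 animal alone.

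Expression was read against 1394 olfactory and vomeronasal receptor genes, which are taken to be silent in these cells. A member was counted as expressed where its signal was above the 95th percentile of these receptors on each of the 7 arrays, a limit of 3.84 to 4.17 by array. By this rule 23 of 43 members were expressed (53.5%), against 50.6% of all genes and 3.23% of the receptors themselves. A further 9 members passed the limit on 1 to 6 arrays, and 11 on 0 arrays. With the 99th percentile as the limit 9 members passed on all arrays, namely Foxf1, Foxp1, Foxj2, Foxo1, Foxk1, Foxk2, Foxj3, Foxn2 and Foxn3. Probe sets differ in how brightly they report a transcript, so a higher signal of 1 gene than another is not a higher transcript number.

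**Figure D1:**
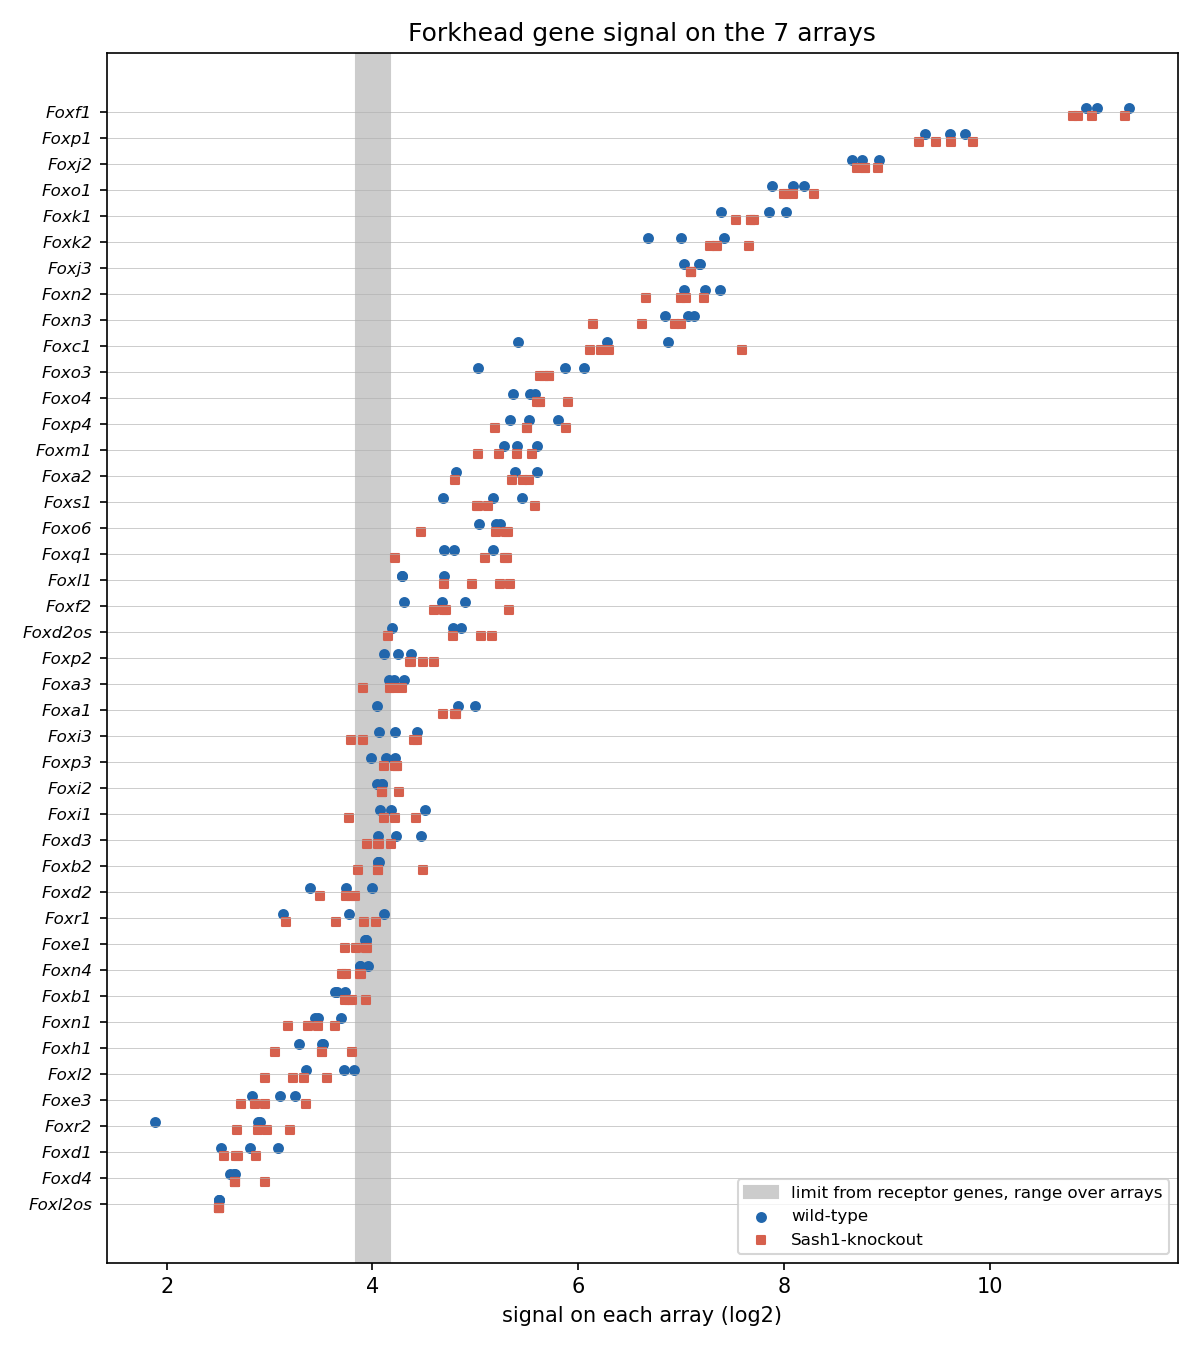
Signal of the 43 forkhead genes on each array (log2), in rows ordered by arrays passed and mean; circles are the 3 arrays labelled wild-type, squares the 4 labelled Sash1-knockout, and the grey band is the limit from receptor genes (3.84 to 4.17 over arrays). The 23 genes of the upper rows lie above the limit on all arrays, and the groups overlap or touch for all but 1 of the 39 genes tested, Foxo4.

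The labels were compared with limma across 16637 genes, after the dimmest 25% of genes were left out, a step that 39 members passed and Foxr2, Foxd1, Foxd4 and Foxl2os did not. In this test 0 of 39 members passed a Benjamini-Hochberg adjusted p of 0.05, and 0 of 16637 genes did (0%). At an unadjusted p under 0.05 there was 1 member, Foxl1 (2.56% of 39), beside 556 of all genes (3.34%, with 2.38% higher and 0.962% lower on the knockout-labelled arrays). The groups failed to overlap for 1 member, Foxo4 (2.56%), beside 2.45% of all genes (1.77% higher and 0.679% lower). With no genes left out these shares of all genes were 3.34% and 2.46%. The shares of members are near these backgrounds. Of the 39 members 21 had higher and 18 lower values on the knockout-labelled arrays, with a median difference of 0.018, beside a median of 0.015 and 54.4% higher over all genes. Without wild-type array 3 there were 13 higher and 26 lower members, and 1314 genes had an unadjusted p under 0.05, against 295 without wild-type 2 and 1779 without both wild-type 3 and knockout 3, in which case 13 members were higher and 25 lower. Without wild-type 3 and knockout 3, 4 members, Foxk1, Foxk2, Foxo3 and Foxd3, had an unadjusted p under 0.05, beside 10.7% of all genes. Leaving out this pair also parts the labels by a list of glucocorticoid response genes. The mean of that list was 8.22 and 8.31 on wild-type 1 and 2, against 7.36, 7.07 and 6.72 on knockout 1, 2 and 4. The part of that list in these counts was not tested. Adjusted p-values of the 39 members lay between 0.971 and 1, so every difference given here is a value that did not pass.

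**Figure D2:**
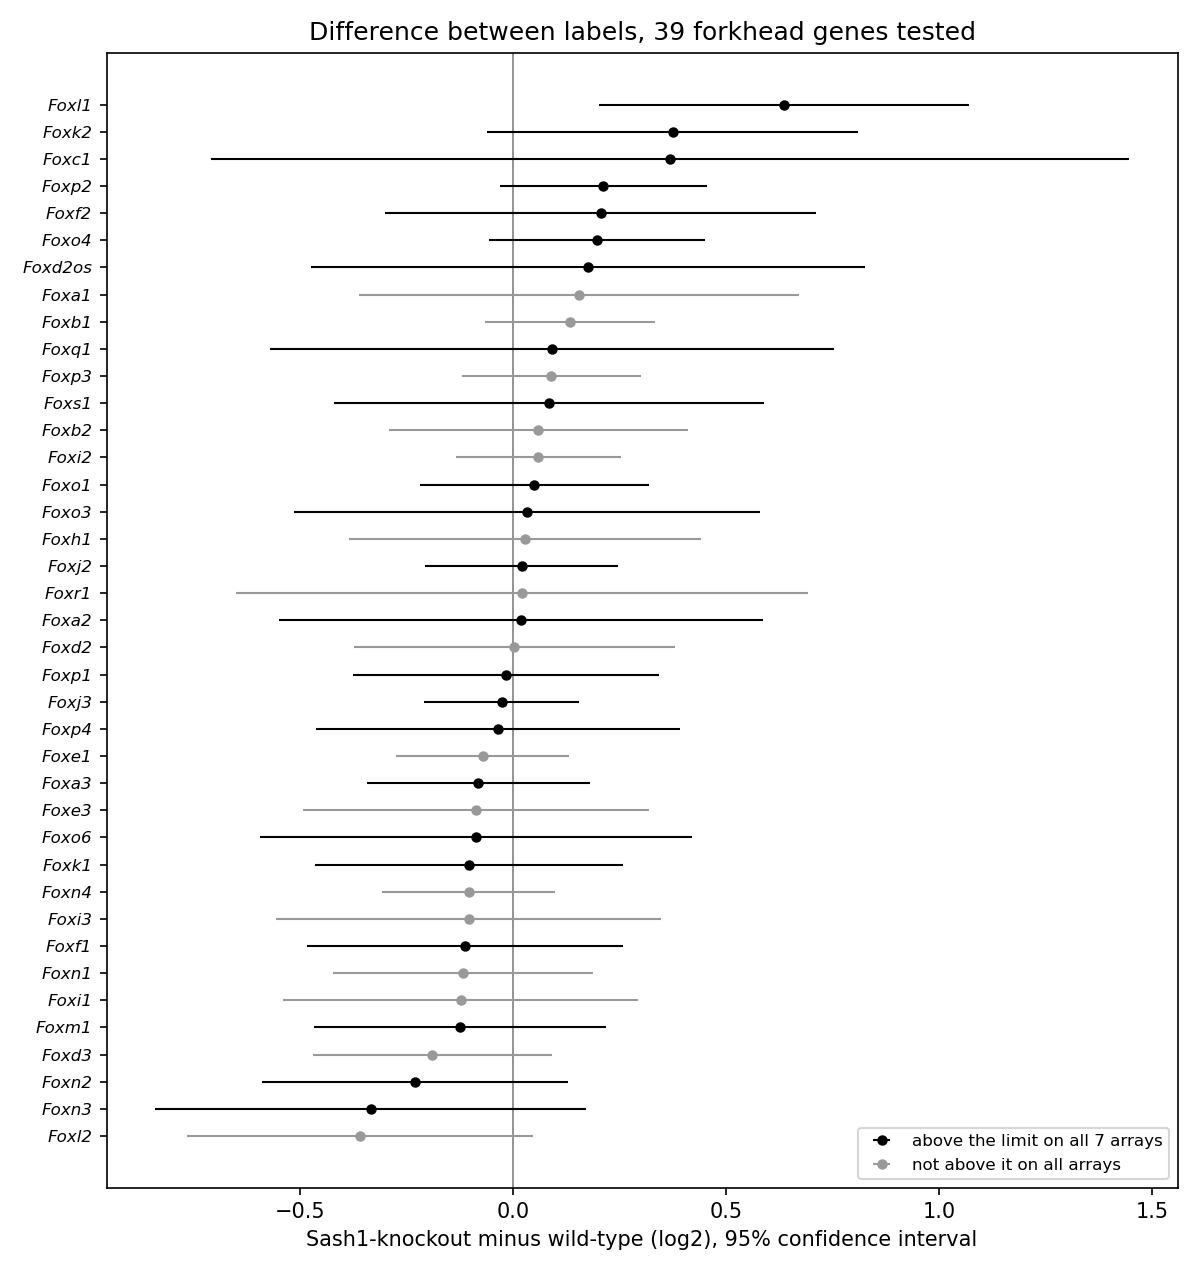
Difference between labels (Sash1-knockout minus wild-type, log2) of the 39 forkhead genes tested, with 95% confidence intervals from limma; black marks genes above the limit on all 7 arrays and grey the others. Foxl1, at 0.64, is the only gene here whose interval leaves out 0, and its adjusted p is 0.971.

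Foxf1 had signals of 11.35, 11.04 and 10.93 on wild-type-labelled arrays 1, 2 and 3, and 10.86, 10.99, 11.31 and 10.81 on knockout-labelled arrays 1 to 4. Wild-type array 1 and knockout 3 were highest and all 7 lay within 0.54, so the groups overlapped. Its mean was 11.11 ± 0.22 (SD, n = 3) on the wild-type-labelled arrays and 10.99 ± 0.23 (SD, n = 4) on the knockout-labelled ones, a difference of -0.11 (95% confidence interval -0.48 to 0.26). The difference was 0.01 without wild-type 1 and -0.22 without knockout 3. Fendrr, transcribed next to Foxf1, measured 8.67, 9.37 and 10.23 on the wild-type-labelled arrays and 9.87, 9.31, 8.68 and 8.92 on the knockout-labelled ones, so that the 2 arrays highest for Foxf1 were the 2 lowest for Fendrr. These 2 arrays were also the highest for immediate early and dissociation stress genes, whose list averaged 8.76, 8.53 and 7.28 against 8.43, 7.19, 9.12 and 6.58, with 2 of the 14 genes higher and 12 lower on the knockout-labelled arrays. The part of this list in the Foxf1 values was not tested.

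Foxl1, a factor of the mesenchyme, measured 4.70, 4.29 and 4.29 on the wild-type-labelled arrays and 5.34, 5.24, 4.97 and 4.70 on the knockout-labelled ones. The lowest knockout-labelled array equalled the highest wild-type-labelled one. These signals are dim: the 4.29 of wild-type 2 and wild-type 3 was close to their limits of 4.07 and 4.12. Foxl1 did not pass the 99th percentile of the receptors on all arrays. The difference of 0.64 (SE 0.18, 95% confidence interval 0.20 to 1.07) corresponds to 155% of the wild-type-labelled level and was the largest of the 39 in size, with an unadjusted p of 0.010 and an adjusted p of 0.971 in limma. It lay between 0.54 and 0.77 with each array left out, and without both wild-type 3 and knockout 3 it was 0.60 with an unadjusted limma p of 0.0641.

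Fibroblast and mural cell markers were measured on the same arrays. Of the 16 markers 14 had higher values on the knockout-labelled arrays, with a median difference of 0.14. Their mean signal was 6.59, 7.01 and 6.65 on the wild-type-labelled arrays and 7.23, 6.70, 7.09 and 6.68 on the knockout-labelled ones. The list did not follow Foxl1 by array, since wild-type 1 was its lowest array but the highest wild-type-labelled one for Foxl1. The groups failed to overlap for 1 of the 16, Tcf21, a factor of lung fibroblasts, beside 2.45% of all genes. Tcf21 lay between 8.0 and 8.38 on the wild-type-labelled arrays and between 8.47 and 8.99 on the knockout-labelled ones. None of the 16 passed. All markers but Wnt2 and Lum were above the limit on all arrays. Their part in the Foxl1 values was not tested. Foxf2, a mesenchymal relative of Foxf1, measured 4.31, 4.90 and 4.68 against 5.33, 4.70, 4.71 and 4.60, a difference of 0.21 (95% confidence interval -0.30 to 0.71) that was 0.04 without knockout 1. Knockout array 1 was the highest of the 7 both for Foxf2 and for the marker list.

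Foxc1, which acts in the development of vessels and mesenchyme, varied more over the arrays than any other expressed member. Its signals were 5.41, 6.87 and 6.28 on the wild-type-labelled arrays and 6.11, 6.22, 6.30 and 7.59 on the knockout-labelled ones, a range of 2.18 against a median range of 0.72 over the 23 expressed members. Wild-type array 1 was lowest and knockout 4 stood above the rest. The difference of 0.37 (95% confidence interval -0.71 to 1.45) was -0.02 without wild-type 1 and 0.71 without wild-type 2. Gata4, a transcription factor gene named after its values were seen, had its lowest and highest signals on the same 2 arrays, 4.48 and 6.40. The mean of the fibroblast and mural markers went otherwise, being highest on knockout 1, at 7.23, and 6.68 on knockout 4. Foxq1, which lies next to Foxf2, measured 5.17, 4.70 and 4.79 against 5.31, 5.29, 5.09 and 4.22, and its other probe set had a difference of -0.06 where this one had 0.09. Foxs1, a factor of perivascular cells, measured 5.45, 5.17 and 4.69 against 5.12, 5.03, 5.58 and 5.02, with a difference of 0.08 (-0.42 to 0.59) that was -0.12 without wild-type 3.

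Genes linked to FOXF1 in lung vessels, 20 in all and 20 tested, had higher values in 6 and lower in 14, with 0 passing. After median centring 11 were higher and 9 lower, but centring adds the same amount to every gene's difference. It moved the median over all genes from 0.015 to 0.0725, so such counts are not particular to a list. The median difference of the 20 genes was -0.05 before centring. Those of smallest unadjusted p were Stat3, a signal transducer, at -0.29 (95% confidence interval -0.61 to 0.02), Flt1, a VEGF receptor, at -0.15 (-0.38 to 0.07), and S1pr1, the sphingosine-1-phosphate receptor that steadies endothelial junctions, at -0.36 (-0.97 to 0.24). S1pr1 was at -0.20 without wild-type 1 and -0.62 without wild-type 3. Among 19 listed partners and targets of FOXC, FOXP and FOXN factors 12 were higher and 7 lower, and 0 passed, and after median centring 15 were higher. The chemokine receptor gene Cxcr4 led them at 0.79 (-0.03 to 1.62), followed by the deacetylase gene Hdac2 at 0.23 (-0.08 to 0.54) and the kinase gene Hipk2 at 0.20 (-0.10 to 0.51), and without wild-type 2 the 3 were at 0.43, 0.14 and 0.11.

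All 4 FOXO genes were expressed by the rule. Foxo1, the main FOXO of endothelium, measured 8.19, 8.09 and 7.88 on the wild-type-labelled arrays and 8.03, 8.09, 8.29 and 8.0 on the knockout-labelled ones. The groups overlapped, and the means of 8.05 ± 0.16 (SD, n = 3) and 8.10 ± 0.13 (SD, n = 4) differed by 0.05 (95% confidence interval -0.22 to 0.32). This interval covers 85.9% to 125% of the wild-type-labelled level. A second Foxo1 probe set, dimmer on every array, differed by 0.06. The sign of the Foxo1 difference turned without wild-type 3 (-0.04).

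Foxo3 measured 5.87, 6.06 and 5.03 against 5.72, 5.63, 5.72 and 5.67. The 4 knockout-labelled values were within 0.09 of each other and lay between those of wild-type array 3 and wild-type 1. Its difference of 0.03 (95% confidence interval -0.52 to 0.58) became -0.28 without wild-type 3. Foxo4 measured 5.37, 5.58 and 5.53 against 5.90, 5.60, 5.63 and 5.63. No knockout-labelled value fell among the wild-type-labelled ones, though the gap was 0.02, and the difference of 0.20 (-0.06 to 0.45) was 0.13 without knockout 1. Foxo6 measured 5.24, 5.04 and 5.20 against 5.20, 5.30, 5.32 and 4.47, a difference of -0.09 (-0.60 to 0.42) that was 0.11 without knockout 4, the lowest array.

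Genes that control FOXO factors were taken as PI3K, AKT, SGK and TIE2 components, of which 26 were tested. Values were higher in 10 and lower in 16 on the knockout-labelled arrays and 0 passed, with a median of -0.04, and 14 were higher after median centring. Tek, which encodes TIE2, differed by 0.05 (95% confidence interval -0.28 to 0.37), Akt1 by 0.16 (-0.17 to 0.48) and Pik3ca, a catalytic PI3K subunit, by -0.13 (-0.52 to 0.25). The smallest unadjusted p were those of Skp2, a ubiquitin ligase subunit that marks FOXO1 for degradation, at 0.70 (-0.10 to 1.5), the insulin receptor substrate Irs1 at 0.59 (-0.17 to 1.36) and the PI3K subunit Pik3r3 at 0.32 (-0.12 to 0.76), which was 0.20 without knockout 2 and 0.21 without wild-type 1. Sgk1, a kinase that phosphorylates FOXO3, had signals of 9.54, 9.71 and 7.67 against 7.16, 8.01, 9.28 and 7.62, with wild-type 1, wild-type 2 and knockout 3 the highest arrays.

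Of 30 listed FOXO target genes 12 were higher and 18 lower, 0 passed and the median was -0.06, and after median centring 15 were higher. The list is not sorted by whether FOXO factors raise or lower a gene, so these counts give no direction of FOXO activity. The catalase gene Cat differed by 0.27 (95% confidence interval -0.01 to 0.55), the stress gene Gadd45b by 0.39 (-0.04 to 0.82) and Trib1, a pseudokinase gene, by -0.59 (-1.29 to 0.10). Gadd45b was at 0.25 without knockout 1, and Trib1 at -0.36 without wild-type 2 and -0.90 without wild-type 3. Of the targets whose windows held a forkhead core, 0 passed. Txnip, a glucose-responsive inhibitor of thioredoxin, lay between 10.99 and 11.38 on all arrays and differed by -0.07 (-0.34 to 0.21), Bcl2l11, the death gene BIM, differed by -0.21 (-0.61 to 0.20), and Trim63, a muscle ubiquitin ligase, passed the limit on 1 of 7 arrays. Cdkn1a, the cell cycle inhibitor p21, measured 11.18, 11.07 and 8.76 against 9.22, 9.28, 10.71 and 9.08. The 3 arrays highest for Cdkn1a were the same as for Sgk1 and for the mean of the glucocorticoid response list, which holds Sgk1 and was 8.22, 8.31 and 6.99 against 7.36, 7.07, 8.04 and 6.72. Of its 12 genes 1 was higher and 11 were lower on the knockout-labelled arrays, and its part in these values was not tested.

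Foxm1 measured 5.28, 5.60 and 5.40 on the wild-type-labelled arrays and 5.23, 5.55, 5.03 and 5.40 on the knockout-labelled ones. The groups overlapped, knockout 3 was lowest, and the difference was -0.12 (95% confidence interval -0.47 to 0.22), within a range of -0.21 to -0.03 with each array left out. Its listed target genes had mean signals of 5.77, 6.26 and 6.10 against 6.07, 6.44, 5.93 and 6.51. Among the wild-type-labelled arrays both Foxm1 and its targets were lowest on wild-type 1 and highest on wild-type 2, and among the knockout-labelled ones both were lowest on knockout 3. The highest knockout-labelled array was knockout 2 for Foxm1 but knockout 4 for the targets. Of the 26 targets tested 22 had higher and 4 lower values on the knockout-labelled arrays, with a median difference of 0.18, and 0 passed. The lowest difference was -0.05, and all 26 were higher after median centring, which adds the same amount to every gene's difference. The list also holds Lin9, at -0.0025, and Lin54, at 0.04, which code for subunits of the complex that binds the CHR. The count of higher genes was 14 without wild-type 1, which had the lowest list mean. Skp2 differed by 0.70 (-0.10 to 1.5), the mitotic kinase gene Plk1 by 0.48 (-0.18 to 1.15) and Cks1b, a cyclin-dependent kinase subunit, by 0.36 (-0.14 to 0.87), and without wild-type 1 Plk1 was at 0.24, while Cks1b was at 0.22 without knockout 3. The proliferation marker Mki67, whose CHR pair is shown above, measured 6.85, 7.59 and 7.69 against 7.58, 7.79, 6.93 and 7.71.

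**Figure D3:**
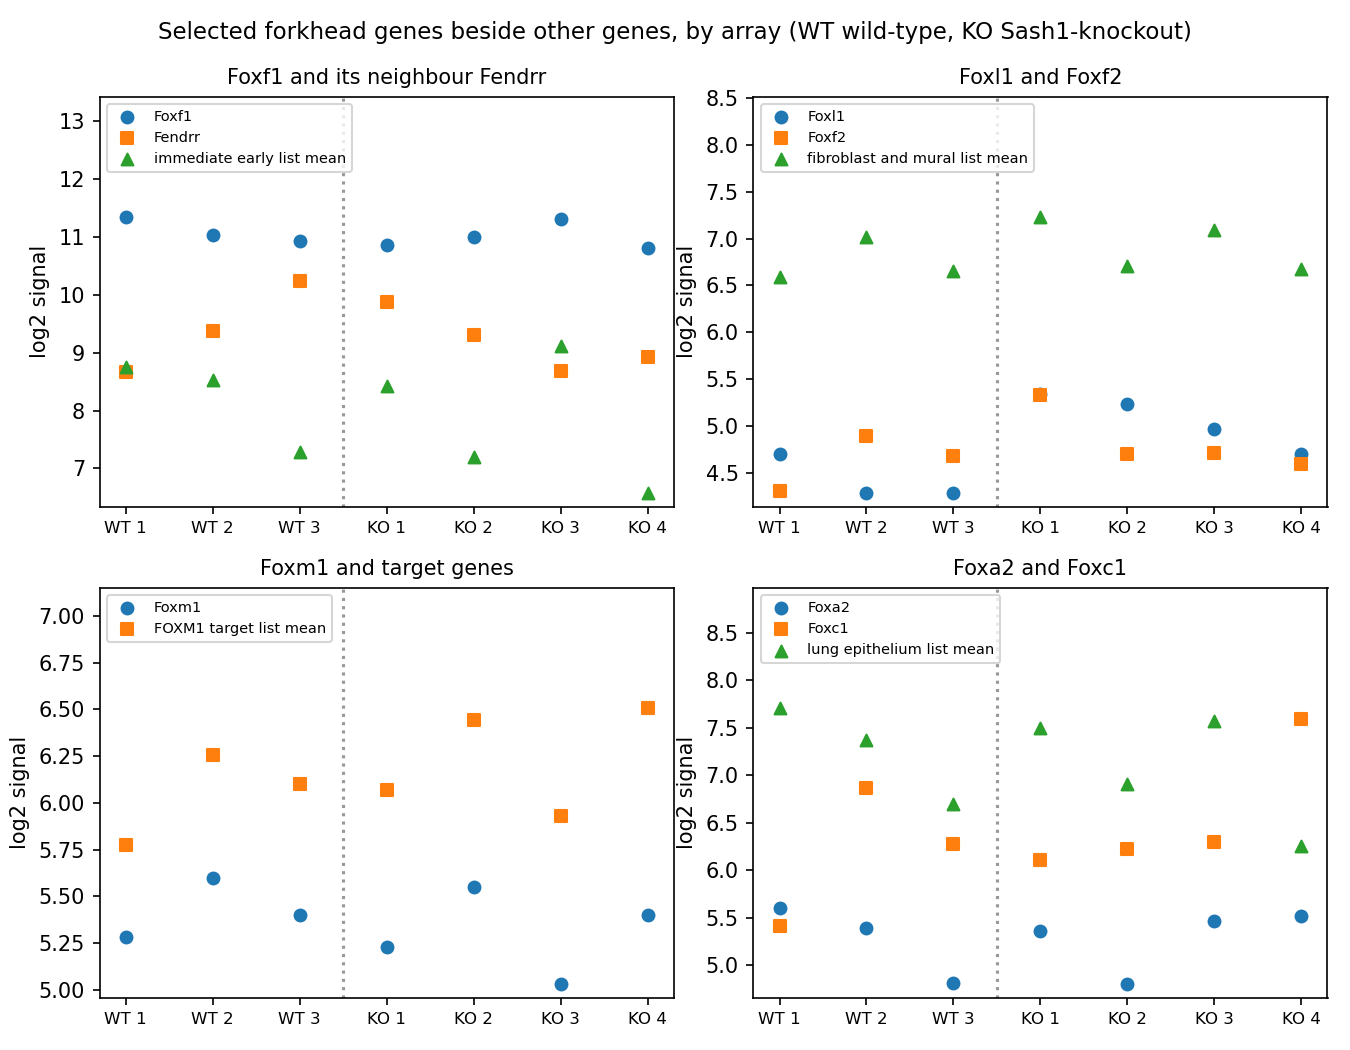
Log2 signal on each of the 7 arrays (WT wild-type, KO Sash1-knockout by label) of selected forkhead genes beside neighbouring genes or the mean of a gene list, with markers named in each panel and no line between replicates, which have no order. Foxf1 is highest and Fendrr lowest on WT 1 and KO 3, Foxl1 is at 4.70 on both WT 1 and KO 4, Foxm1 is lowest on KO 3, and Foxc1 reaches 7.59 on KO 4.

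Of the FOXP repressors 3 were expressed by the rule. Foxp1, which acts in lung endothelium and epithelium, measured 9.76, 9.37 and 9.61 against 9.48, 9.62, 9.84 and 9.31. The values were mixed between labels, and the difference was -0.02 (95% confidence interval -0.38 to 0.34), or 0.04 after median centring. Foxp4 measured 5.52, 5.80 and 5.34 against 5.19, 5.50, 5.88 and 5.50, a difference of -0.04 (-0.46 to 0.39), or 0.02 after median centring. Foxp2, better known from distal lung epithelium, measured 4.11, 4.37 and 4.25 against 4.60, 4.37, 4.49 and 4.36, a difference of 0.21 (-0.03 to 0.46) close to the limit. Foxp3, which defines regulatory T cells, lay between 3.99 and 4.24, at the limit.

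Of the FOXJ, FOXK and FOXN factors, both FOXJ members varied little over the arrays. Foxj2 measured 8.92, 8.76 and 8.66 against 8.79, 8.91, 8.71 and 8.79, a range of 0.26, with a difference of 0.02 (95% confidence interval -0.21 to 0.25). Foxj3 measured 7.18, 7.17 and 7.03 against 7.10 on each of the 4 knockout-labelled arrays, with a difference of -0.03 (-0.21 to 0.16), or 0.03 after median centring. For both genes a change beyond 119% or below 86.5% of the wild-type-labelled level lies outside the interval.

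Foxk1, a FOXK factor of metabolism and autophagy control, measured 8.02, 7.85 and 7.39 against 7.53, 7.71, 7.68 and 7.68, a difference of -0.10 (95% confidence interval -0.46 to 0.26). Its relative Foxk2 measured 7.00, 6.68 and 7.42 against 7.35, 7.66, 7.28 and 7.34, a difference of 0.37 (-0.06 to 0.81). For Foxk2 wild-type array 3 lay among the knockout-labelled ones and the other wild-type-labelled arrays lay below them, and the difference was 0.20 without wild-type 2 and 0.57 without wild-type 3. Foxk1 was at 0.03 without wild-type 1 and -0.29 without wild-type 3.

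Foxn2 measured 7.23, 7.38 and 7.03 against 6.66, 7.22, 7.05 and 7.00, a difference of -0.23 (95% confidence interval -0.59 to 0.13) that was -0.12 without knockout 1. Foxn3, a repressor linked to cell cycle checkpoints, measured 7.12, 7.07 and 6.84 against 6.62, 6.94, 7.00 and 6.14, a difference of -0.33 (-0.84 to 0.17) that was -0.16 without knockout 4. The groups overlapped for both. Of the other FOXN members, Foxn4 and the thymus factor Foxn1 passed the limit on 0 arrays.

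The FOXA genes belong to epithelium, which the gate was set to leave out. Foxa2 measured 5.60, 5.39 and 4.81 on the wild-type-labelled arrays and 5.36, 4.80, 5.46 and 5.52 on the knockout-labelled ones, a difference of 0.02 (95% confidence interval -0.55 to 0.59) that was -0.21 without wild-type 3. Foxa1 measured 4.83, 5.0 and 4.04 against 4.80, 4.69, 4.81 and 4.81 and passed the limit on 6 arrays, all but wild-type 3, with a difference of 0.15 (-0.36 to 0.67) that was -0.14 without that array. Foxa3, a liver and gut factor, measured 4.21, 4.16 and 4.31 against 4.17, 3.91, 4.29 and 4.21, close to the limit on every array. The groups overlapped, and the difference was -0.08 (-0.34 to 0.18), with a range of -0.13 to -0.0033 when each array was left out.

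Lung epithelial markers were measured on the same arrays. Of the 20 markers 17 were above the limit on all arrays, 14 had lower and 6 higher values on the knockout-labelled arrays, and their mean ranged from 6.70 to 7.71 on the wild-type-labelled arrays and from 6.26 to 7.57 on the knockout-labelled ones. Wild-type array 3 and knockout 2 were lowest for Foxa2 and low for the list, at 6.70 and 6.91. On knockout array 4 the list was lowest, with the surfactant gene Sftpa1 at 4.70 and Lamp3, a marker of alveolar type 2 cells, at 2.97, while Foxa2 was at 5.52, among the higher values. The share of epithelial RNA in the Foxa1 and Foxa2 signals was not tested.

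The remaining members gave little signal. Besides Foxa1 and Foxp3, those passing the limit on 1 to 6 arrays were Foxi1, Foxi2, Foxi3, Foxd3, Foxb2, Foxd2 and Foxr1. Foxe1, Foxn4, Foxb1, Foxn1, Foxh1, Foxl2, Foxe3, Foxr2, Foxd1, Foxd4 and Foxl2os passed it on 0 arrays, with signals between 1.89 and 3.96. Many of these act elsewhere, such as Foxl2 in the ovary, Foxe1 in the thyroid, Foxe3 in the lens and Foxd1 in kidney stroma. The 16 that were tested split into 8 higher and 8 lower, with differences from -0.36 to 0.15, the first that of Foxl2. Foxd2os, of the long non-coding pair, measured 4.19, 4.78 and 4.86 against 5.05, 5.16, 4.15 and 4.78, a difference of 0.17 (95% confidence interval -0.48 to 0.83) that was -0.04 without wild-type 1, while Foxd2 itself passed the limit on 1 array.

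Single arrays moved most of these differences. Of the 24 members described with a difference (the 23 expressed and Foxa1), 22 moved by over 1.5 times, either way, when 1 array was left out, and 14 of them turned sign. Foxl1 and Foxp2 were the 2 that did neither. The same counts were not made over all genes. Several of the differences were small with all 7 arrays, such as -0.02 for Foxp1 and 0.02 for Foxa2, and small differences turn sign readily. The median interval of the 23 expressed members reached 0.43 log2 units to either side. Over the 7 arrays the expressed members had a median range of 0.72, against 0.59 for all genes above the limit on all arrays.

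**Figure D4:**
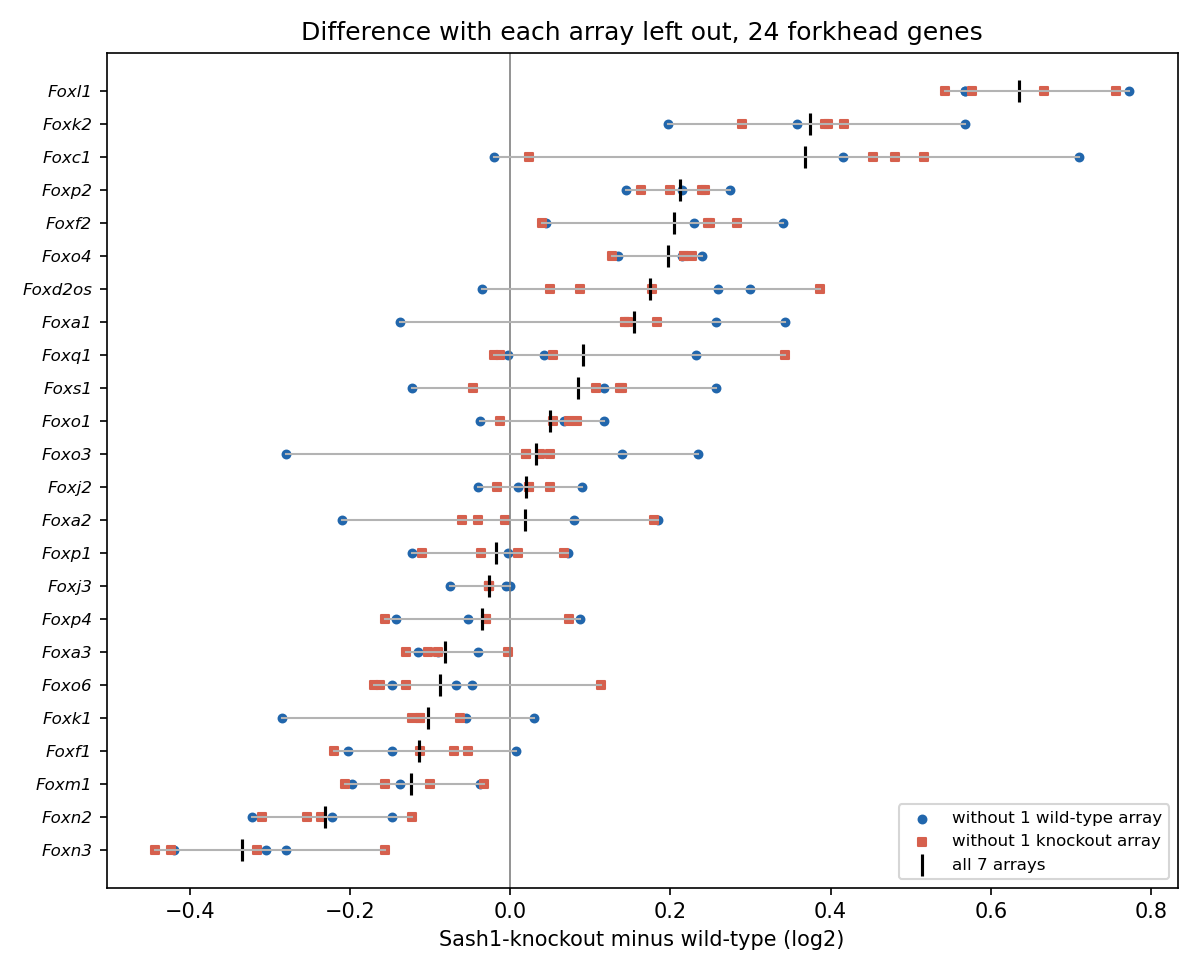
Difference between labels (Sash1-knockout minus wild-type, log2) of 24 forkhead genes with each array left out in turn; circles leave out an array labelled wild-type, squares one labelled Sash1-knockout, and the black bar is the value with all 7. Foxl1 stays between 0.54 and 0.77, while Foxc1 spans -0.02 to 0.71 and 14 genes cross 0.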

How the data were processed

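Per the submitters' processing notes, the authors' deposited log2 values were made with RMA in Affymetrix Expression Console 1.1. That they are on a log2 scale follows from their range. The genome build behind the probe sets is not given in the sources used here. Probe sets were named through GEO's platform annotation, of which 23521 of 41345 had 1 symbol, 1814 several and 16010 none listed. Gene identifiers were matched to RefSeq GRCm38.p6 (99.2% found). Each gene was represented by its brightest probe set, and genes below a mean of 2.98 (the dimmest 25%) were left out. Labels were compared with limma 3.58.1 in R 4.3.3, two-sided, called at an adjusted p under 0.05. The fit was tested on simulated data, and the alternatives tried were other filters, limits, normalizations, weights, blocks, a sex term and leaving arrays out.

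Members and lists were chosen with earlier results of these data known. Members above the receptor limit on all arrays were named with every value, as were those with an unadjusted p under 0.05 or no overlap between labels, and from each pathway list the 3 genes of smallest unadjusted p. Other genes were named after their values were seen. Some listed genes were not analysed here. Leukocyte markers averaged 5.23 to 5.75 on wild-type-labelled arrays and 4.45 to 5.60 on knockout-labelled ones, pan-endothelial ones 10.05 to 10.08 and 9.98 to 10.15, lymphatic ones 6.79 to 7.71 and 7.07 to 7.63, and erythroid ones 3.45 to 3.62 and 3.43 to 3.70.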

Additional observations from a re-analysis of the deposited data

Results flagged for a closer look

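In the group of 4 arrays labelled knockout, 9 of 43 members (20.9%) had an array that stood apart from the other 3 by Dixon's test, against 17.8% of all genes. Among genes above the limit on all arrays the shares were 5 of 23 members (21.7%) and 13.4% of all such genes. By its critical value the test marks about 1 in 20 groups by chance. Many deposited values are tied, and the part of ties in these shares was not tested. The same test picked out 0 of 13 gene list means. Among expressed members, Foxc1 was at 7.59 on knockout 4 (the others at 6.11 to 6.30), Foxo6 at 4.47 on knockout 4 (5.20 to 5.32), Foxf2 at 5.33 on knockout 1 (4.60 to 4.71), Foxo4 at 5.90 on knockout 1 (5.60 to 5.63) and Foxk1 at 7.53 on knockout 1 (7.68 to 7.71). Near or under the limit, Foxa1 was at 4.69 on knockout 2 (4.80 to 4.81), Foxp3 at 4.11 on knockout 4 (4.22 to 4.24), Foxi2 at 4.26 on knockout 3 (4.09 on the others) and Foxd4 at 2.96 on knockout 3 (2.66 on the others).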

How the results depend on the processing

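With every alternative 0 members and 0 genes were called, also at an adjusted p under 0.1, and the smallest adjusted p of a member with values was 0.327, for Foxk2 with wild-type 3 and knockout 3 left out, a pair chosen after seeing the data. The count of genes with an unadjusted p under 0.05, 556 with all arrays, was 1310 with array weights, 1779 without those 2 arrays and 295 to 1314 with each array left out. For members this count, 1 with all arrays, was 2 with quantile normalization (4.24% of all genes), 3 with median centring (4.29%), 4 with array weights (7.87%), 4 without those 2 arrays (10.7%) and 1 to 6 with each array left out. Same-numbered arrays did not deviate together (correlations of -0.18, -0.20 and -0.55). With so few arrays per group such correlations cannot tell whether the samples were paired. With the replicate number as a fixed or a random block the gene count was 225 or 367 and the member count 1. Members with higher values numbered 13 (9 lower) with the dimmest 50% of genes left out, 13 without those 2 arrays and 13 to 24 with each array left out, and higher FOXM1 targets 14 to 26. The shares of all genes higher were not counted in these settings. Genes linked to FOXF1 with higher values were 11 with median centring, which adds the same amount to every gene's difference. Members above the limit were 9 with the 99th percentile, 16 with the array median as limit and 29 on at least 4 arrays. Median centring turned Foxp1 to 0.04, Foxj3 to 0.031 and Foxp4 to 0.022. Array weights turned Foxp1 to 0.051, Foxj2 to -0.0026, Foxo3 to -0.16, Foxa2 to -0.027 and Foxa1 to -0.025. The fixed replicate block turned Foxp1 to 0.067, Foxa2 to -0.06 and Foxo6 to 0.11. Without wild-type 3 and knockout 3, Foxj2 was at -0.01, Foxo1 at -0.10, Foxo3 at -0.29, Foxa2 at -0.27, Foxs1 at -0.25 and Foxa1 at -0.15. The cause was not tested. Of 416 gene values under settings other than leaving out 1 array, 399 kept their sign. With each array left out the ranges of those that turned were -0.22 to 0.0075 for Foxf1, -0.12 to 0.0725 for Foxp1, -0.04 to 0.09 for Foxj2, -0.0375 to 0.12 for Foxo1, -0.29 to 0.03 for Foxk1, -0.02 to 0.71 for Foxc1, -0.28 to 0.23 for Foxo3, -0.16 to 0.0875 for Foxp4, -0.21 to 0.18 for Foxa2, -0.12 to 0.26 for Foxs1, -0.17 to 0.11 for Foxo6, -0.02 to 0.34 for Foxq1, -0.035 to 0.39 for Foxd2os and -0.14 to 0.34 for Foxa1.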

Other observations

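Several forkhead probe sets had exactly the same deposited value, to 2 decimals, on different arrays. Foxl2os was at 2.51 on all 7 arrays, Foxi2 at 4.09 on 5, and Foxj3 at 7.10 on 4. The same value on 3 or more arrays was found for 8 of 43 members (18.6%), against 36.4% of all genes, and for 1 of the 23 expressed members (4.35%), against 24.8% of genes above the limit on all arrays. The cause was not tested.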
